A study of Mus musculus with 4 samples.

Results

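The genes described here encode the creatine kinases of the heart and the creatine transporter (*Ckm*, *Ckmt2*, *Ckb* and *Slc6a8*), adenylate kinases of the cytosol and mitochondrial matrix (*Ak1* and *Ak3*), and myoglobin (*Mb*). They were taken by exact symbol, and all 7 were found among the 55401 genes of the table. Their levels were measured by RNA-seq of polyA RNA in hearts of mice aged 8 weeks, in 2 wild-type and 2 *Ctcf* heterozygous animals. The heterozygous mice (*Ctcf* +/R567W) carry a substitution in CTCF, a zinc finger protein that organises chromatin loops, on 1 *Ctcf* allele. It was introduced by CRISPR/Cas9 into the germline of C57BL/6N mice, so every cell type of the heart carries it. The labels list no agent for either genotype and give the tissue as heart, with no part of it named and no sorting of cells. The comparison asks how the genes of energy transfer in the heart differ between the genotypes.

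In heart muscle ATP is made in mitochondria and used at the myofibrils and calcium pumps. Creatine kinases move the phosphate between these sites. The mitochondrial enzyme charges creatine with phosphate from new ATP, the cytosolic enzymes recover ATP from phosphocreatine where it is spent, and the transporter brings creatine into the cell, since heart muscle makes little of it. Adenylate kinases recover ATP from ADP and set the level of AMP, and myoglobin binds oxygen inside the muscle cell.

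No gene of the 7 passed the threshold between genotypes. The largest difference was that of *Ckmt2*, the mitochondrial creatine kinase, which was lower in both heterozygous hearts than in either wild-type heart. *Ckm*, the muscle creatine kinase, and *Mb* followed the same course over the 4 hearts. They were nearly equal in both wild-type hearts and in heterozygous heart 2, and lower in heterozygous heart 1. After a correction for GC content and length of the transcript, these genes were lower in both heterozygous hearts than in both wild-type hearts. Their adjusted p from limma was then 0.514 for *Ckm* and 0.598 for *Mb*. No share of all tested genes was counted for that correction, so this order is not read as a result about the genes. *Ckb*, the brain-type creatine kinase, stood at a few per cent of *Ckm*, and its share was higher in both heterozygous hearts. An exact permutation test of that share gave p = 0.333, the lowest that 2 hearts against 2 can reach. Direction for 6 of the 7 genes depended on how the libraries were set to a common level, and is given with each gene.

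The deposited values are TPM, transcript abundances scaled for gene length and to a fixed total, which keep no read depth. The depth behind each value and its counting error are therefore unknown. Mitochondrially encoded (mt-) genes took 61.1% to 68.6% of the TPM, and with their nuclear copies 76.0% to 85.8%, most in heterozygous heart 1. Each library was therefore divided by a median-of-ratios factor, between 0.818 and 1.26, and such values are called scaled TPM. Values are given for wild-type hearts 1 and 2 and then heterozygous hearts 1 and 2. Fold changes are on the log2(scaled TPM + 1) scale as heterozygous minus wild-type, which understates differences of low genes. They were tested with limma over 10036 genes, those whose mean TPM reached 1, and p was adjusted over all of them (Benjamini-Hochberg). The threshold for a call was an adjusted p of 0.05 together with a fold of 1.5.

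The hearts held the markers of their label. The 10 cardiomyocyte markers summed to 26541 and 24926 scaled TPM in wild-type and to 21366 and 25445 in heterozygous hearts. 5 of them were lower in both heterozygous hearts than in both wild-type hearts, 1 was higher, and none was called, where 23.3% and 23.7% of all tested genes were lower and higher in this way. Of 9 skeletal muscle markers, *Myh1*, *Myh2* and *Myh4* were listed at 0 in every library, and the sum was 4.36 and 4.84 in wild-type and 4.33 and 5.96 in heterozygous hearts. Atrial markers summed to 806 and 2354 in wild-type and 1918 and 3281 in heterozygous hearts. Erythroid markers summed to 930, 987 and 965 in wild-type hearts 1 and 2 and heterozygous heart 1, and to 2120 in heterozygous heart 2. Over all 4 hearts, endothelial markers summed to between 250 and 329, fibroblast markers to between 32.6 and 59.6, smooth muscle markers to between 38.6 and 56.8, macrophage markers to between 14.1 and 19.7, adipocyte markers to between 5.61 and 6.45, and neural markers to between 2.63 and 4.48.

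Upstream sequence is shown for the 3 creatine kinase genes and for *Mb*, the genes on which the comparison turns. The stretches come from RefSeq (GRCm38.p6, the assembly of mm10). They run 5′ to 3′ on the strand of the gene and end at the base before the start site, except for *Ckm*, where annotated exon sequence was left out and the stretch covers positions -250 to -70. Capitals mark matches on either strand to the core promoter motif TATAAA, the E-box (CANNTG), the CCAAT box, the ERR half-site (AAGGTCA), the MEF2 motif or the CArG box.
Ckm, chr7:19410844-19411024, plus strand: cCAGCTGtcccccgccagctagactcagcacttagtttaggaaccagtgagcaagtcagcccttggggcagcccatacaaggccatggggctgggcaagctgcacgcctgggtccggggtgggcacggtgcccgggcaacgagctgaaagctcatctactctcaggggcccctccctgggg
Mb, chr15:77022788-77023037, minus strand: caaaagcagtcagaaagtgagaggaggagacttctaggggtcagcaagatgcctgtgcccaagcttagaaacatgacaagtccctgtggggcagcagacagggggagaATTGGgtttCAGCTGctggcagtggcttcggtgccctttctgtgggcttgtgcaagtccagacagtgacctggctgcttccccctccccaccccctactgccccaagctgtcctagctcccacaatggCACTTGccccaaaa
Ckmt2, chr13:91876886-91877135, minus strand: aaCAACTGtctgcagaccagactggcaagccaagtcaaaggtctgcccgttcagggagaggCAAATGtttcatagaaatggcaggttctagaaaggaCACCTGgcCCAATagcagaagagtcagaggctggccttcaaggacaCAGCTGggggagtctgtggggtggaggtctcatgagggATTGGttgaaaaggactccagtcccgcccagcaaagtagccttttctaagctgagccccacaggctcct
Ckb, chr12:111672339-111672588, minus strand: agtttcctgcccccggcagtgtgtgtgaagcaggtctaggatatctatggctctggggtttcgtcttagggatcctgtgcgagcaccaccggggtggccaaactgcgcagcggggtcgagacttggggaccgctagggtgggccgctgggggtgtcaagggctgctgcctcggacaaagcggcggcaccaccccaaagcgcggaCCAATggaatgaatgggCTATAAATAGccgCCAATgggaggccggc

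The stretch of *Ckm* held 1 E-box, at position -249 from the start site. *Mb*, which has 3 start sites in the table, held 2 E-boxes and 1 CCAAT box upstream of the site shown. *Ckmt2* had 4 E-boxes and 2 CCAAT boxes. In *Ckb* a TATA box, as the core promoter motif is called, lay inside a MEF2 match at positions -29 to -20, between 2 CCAAT boxes, and no E-box was found. Among the 32841 start sites of the table, the 250 bases upstream held an E-box in 66.2%, a CCAAT box in 33.9%, a TATA box in 12.4%, an ERR half-site in 4.08%, a CArG box in 1.47% and a MEF2 motif in 0.509%. Of the 11 start sites of 6 of the genes in that table, *Slc6a8* not being listed, only that of *Ckb* had the TATA or MEF2 match. Only exact matches were counted. The upstream part of *Ckm* that is not shown holds ctatataac, which is close to TATAAA but not a match. One *Ak1* start site had an ERR half-site, and no CArG box was found. These matches describe the letters and do not show that a factor binds.

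*Ckm* (ENSMUSG00000030399.2, chromosome 7, 19404776 to 19422841, plus strand, mm10) makes the enzyme that sits at the M-band and near the calcium pump. Wild-type hearts had 392.4 and 391.9 scaled TPM and heterozygous hearts 283.2 and 403.0. Heterozygous heart 1 was the lowest and heterozygous heart 2 the highest of the 4, so the genotypes overlapped. After the correction for GC content and length they did not, and both heterozygous hearts were the lower (log2 fold change -0.25, adjusted p = 0.514 from limma). How many of all tested genes separated in this way after the correction was not counted. The wild-type mean was 392 ± 0.361 and the heterozygous mean 343 ± 84.7 (SD, n = 2). The log2 fold change was -0.21 (standard error 0.23, 95% interval -0.76 to 0.34, adjusted p = 0.712 from limma). Between the heterozygous hearts the log2 gap was 0.51, larger than the difference between genotypes, and without heterozygous heart 1 the log2 fold change was 0.04. In bulk tissue, fewer cells of a type and less RNA per cell cannot be told apart.

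*Ckmt2* (ENSMUSG00000021622.3, chromosome 13, 91853387 to 91876885, minus strand) encodes the sarcomeric enzyme between the mitochondrial membranes. Wild-type hearts stood at 459 and 546 scaled TPM, heterozygous hearts at 344 and 381. Every heterozygous value lay below every wild-type value. The means were 503 ± 61.1 and 362 ± 26.3 (SD, n = 2). The log2 fold change was -0.47 (standard error 0.20, 95% interval -0.95 to 0.01, adjusted p = 0.412 from limma), so the difference did not pass. A lower log2 fold change was found for 4.61% of all tested genes. It was below 0 under each scaling tried, from -0.91 with TPM as deposited to -0.16 with libraries set to the cardiomyocyte markers, and between -0.59 and -0.34 when any 1 library was left out.

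*Ckb* (ENSMUSG00000001270.9, chromosome 12, 111669361 to 111672338, minus strand) encodes the brain-type enzyme, which is the common form in tissues other than muscle. Its level was 16.9 and 14.1 scaled TPM in wild-type and 17.1 and 19.1 in heterozygous hearts. Both heterozygous hearts were above both wild-type hearts, the nearest pair by little. They no longer separated after the correction for GC content and length (log2 fold change 0.12). The means of 15.5 ± 1.95 and 18.1 ± 1.39 (SD, n = 2) gave a log2 fold change of 0.22 (standard error 0.17, 95% interval -0.18 to 0.62, adjusted p = 0.599 from limma), which turned to -0.20 for TPM as deposited and to -0.10 once mt- genes were removed. A processed copy of *Ckb*, *Gm12892*, is 96.78% identical over 1149 bases. It was listed at 0.06 TPM or less in every library.

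*Slc6a8* (ENSMUSG00000019558.14, chromosome X, 73673150 to 73682502, plus strand) encodes the creatine transporter of the cell membrane. It had 13.7 and 15.6 scaled TPM in wild-type and 14.0 and 13.2 in heterozygous hearts, and the genotypes overlapped. It was lower in both heterozygous hearts after the correction for GC content and length (log2 fold change -0.18, adjusted p = 0.532 from limma). The share of all tested genes was not counted for that setting. Without the correction the log2 fold change of *Slc6a8* was -0.10 (standard error 0.15, 95% interval -0.47 to 0.27, adjusted p = 0.804 from limma), and 0.19 with libraries set to the cardiomyocyte markers. The Y-linked gene *Ddx3y* was at 12.5 to 19.8 scaled TPM in the 4 hearts and *Xist* at 0.0332 or less, so all 4 hearts had Y-linked RNA and almost none of the X-inactivation transcript.

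The adenylate kinases differed in level and in course. *Ak1* (ENSMUSG00000026817.14, chromosome 2, 32621758 to 32635058, plus strand), the main cytosolic form of muscle, stood at 36.1 and 38.7 scaled TPM in wild-type and 29.0 and 34.3 in heterozygous hearts. Its heterozygous values were below its wild-type values. The means were 37.4 ± 1.84 and 31.6 ± 3.75 (SD, n = 2), and the log2 fold change was -0.24 (standard error 0.17, 95% interval -0.65 to 0.17, adjusted p = 0.575 from limma), or 0.06 with libraries set to the cardiomyocyte markers. *Ak3* (ENSMUSG00000024782.7, chromosome 19, 29020833 to 29047961, minus strand) encodes the matrix enzyme that uses GTP, formed in the tricarboxylic acid cycle. It was measured at 8.45 and 8.26 in wild-type and 7.60 and 9.34 scaled TPM in heterozygous hearts, where the lowest and the highest value were those of the heterozygous pair. The log2 fold change of *Ak3* was 0.01 (standard error 0.16, 95% interval -0.36 to 0.39, adjusted p = 0.981 from limma), and turned to -0.39 for TPM as deposited and to -0.31 once mt- genes were removed. Exons of *Ak3* share 430 bases with *Cdc37l1* on the opposite strand, which had 6.80 to 10.8 TPM. Whether the authors counted reads by strand is not given in the sources used here, so reads in the shared part may belong to either gene.

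*Mb* (ENSMUSG00000018893.15, chromosome 15, 77015487 to 77050670, minus strand) was the highest of the 7 genes and ranked 24 by mean level among all tested genes. It had 2533 and 2540 scaled TPM in wild-type and 1859 and 2550 in heterozygous hearts. As with *Ckm*, 3 hearts lay close together and heterozygous heart 1 was lower. Also as with *Ckm*, both heterozygous hearts were the lower after the correction for GC content and length (log2 fold change -0.16, adjusted p = 0.598 from limma). As there, the share of all tested genes was not counted for that setting. Means of 2536 ± 5.23 and 2205 ± 488 (SD, n = 2) gave a log2 fold change of -0.22 (standard error 0.23, 95% interval -0.77 to 0.33, adjusted p = 0.707 from limma), which was 0.01 without heterozygous heart 1 and 0.09 with libraries set to the cardiomyocyte markers. The antisense gene *Gm49540* shares 412 exon bases with *Mb* and was listed at 31.6 and 29.7 TPM in wild-type and at 23.0 and 51.2 TPM in heterozygous hearts, against 1520 to 3200 TPM for *Mb*.

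**Figure D1:**
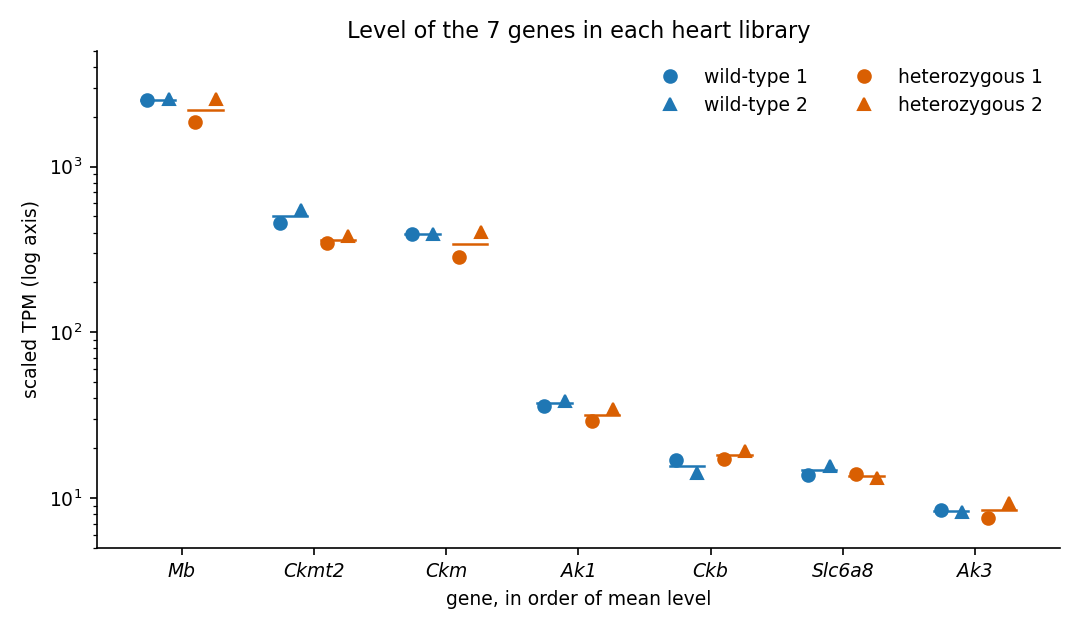
Scaled TPM of each gene (log axis) in the 2 wild-type (blue) and 2 heterozygous hearts (orange), with circles for replicate 1, triangles for replicate 2 and a line at each genotype mean. *Ckm* and *Mb* show 3 hearts together and heterozygous heart 1 below them, and *Ckmt2* shows both heterozygous hearts (344 and 381) below both wild-type hearts (459 and 546).

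Since TPM are scaled for length, levels may be compared between the genes. *Mb* was above all others in every heart, at 6.33 to 6.57 times *Ckm*. *Ckmt2* was above *Ckm* in 3 hearts and below it in heterozygous heart 2, so these neighbours in the order did not separate. *Ak1* followed, clear of the genes above and below it in every heart. *Ckb* was above *Slc6a8* in 3 hearts and below it in wild-type heart 2, and *Ak3* was the lowest of the 7 in every heart. Together the 3 creatine kinase genes reached 869 and 952 scaled TPM in wild-type and 644 and 803 in heterozygous hearts. The groups did not overlap, but the exact permutation test of 2 hearts against 2 cannot go below p = 0.333, two-sided, which is its value here.

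Counted over the 7 genes, limma called 0, and 0 had an unadjusted p under 0.05. Among all tested genes 0.0199% were called lower, 0% were called higher, and 12.2% had an unadjusted p under 0.05. Genes lower in both heterozygous hearts than in both wild-type hearts numbered 2 (*Ckmt2* and *Ak1*), a pattern held by 23.3% of all tested genes. The 1 gene higher without overlap (*Ckb*) stands beside 23.7% of all tested genes. The median log2 fold change was -0.21 for the 7 genes and -0.005 for all tested genes. With TPM as deposited all 7 genes were lower without overlap, as were 67.8% of all tested genes. With libraries set to the cardiomyocyte markers none was lower without overlap and 2 were higher, *Ckb* and *Ak3*, beside 5.31% and 50.7% of all tested genes. Heterozygous heart 1 was the lowest of the 4 for 5 of the 7 genes, and for 31.4% of all tested genes. That heart also had the lowest sum of cardiomyocyte markers and the highest share of mt- genes, and the part of either in these values was not tested.

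**Figure D2:**
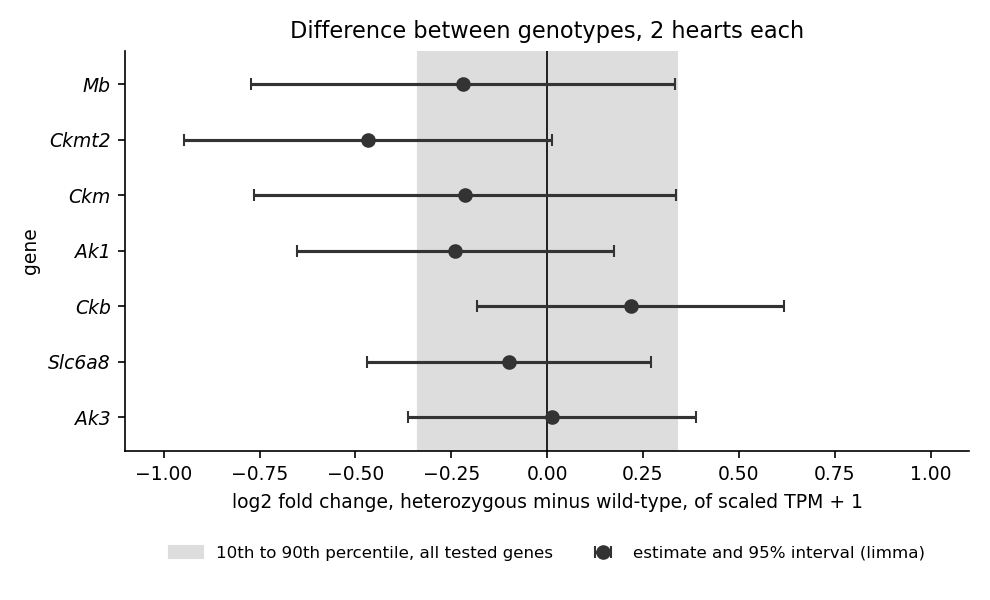
Log2 fold change of each gene (heterozygous minus wild-type, log2 of scaled TPM + 1) with its 95% interval from limma, n = 2 hearts per genotype, and in grey the range from the 10th to the 90th percentile of all tested genes (-0.34 to 0.34). Every interval crosses 0, that of *Ckmt2* by the least, and the sign of all but *Ckmt2* turns under another scaling.

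**Figure D3:**
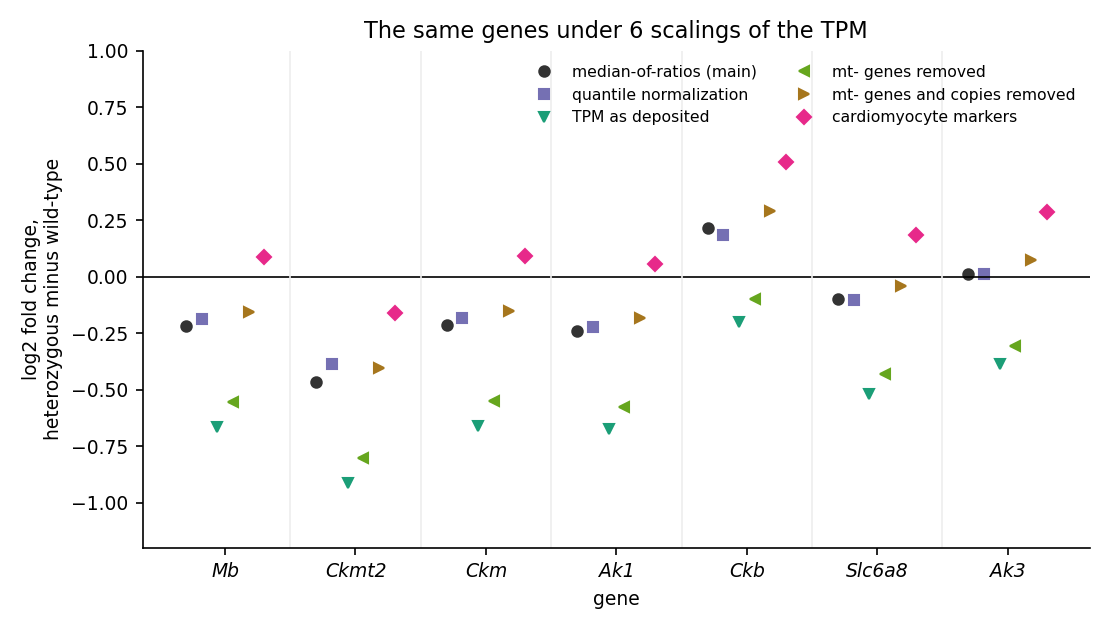
Log2 fold change of each gene (heterozygous minus wild-type) when the TPM are set to a common level in 6 ways. *Ckmt2* is below 0 in all 6 (-0.91 to -0.16), and each of the other genes is above 0 in some and below 0 in others.

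Ratios of 2 genes within a library do not depend on that choice. The share of *Ckb* in the sum of *Ckb* and *Ckm*, the cytosolic creatine kinase genes, was 4.12% and 3.48% in wild-type and 5.71% and 4.53% in heterozygous hearts. Both heterozygous shares lay above both wild-type shares, with means of 5.12% ± 0.835 and 3.80% ± 0.456 (SD, n = 2). Their exact permutation test gave p = 0.333, two-sided, which is its minimum. *Ckmt2* stood at 1.17 and 1.39 times *Ckm* in wild-type and at 1.21 and 0.945 times in heterozygous hearts. These overlapped, and the log2 difference of -0.25 had an exact permutation p of 0.667. *Ak3* was at 0.234 and 0.213 of *Ak1* in wild-type and 0.262 and 0.273 in heterozygous hearts, without overlap (log2 difference 0.26, exact permutation p = 0.333). The ratio of *Mb* to *Ckm* was the steadiest, at 6.45, 6.48, 6.57 and 6.33 (log2 difference -0.005, exact permutation p = 1).

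**Figure D4:**
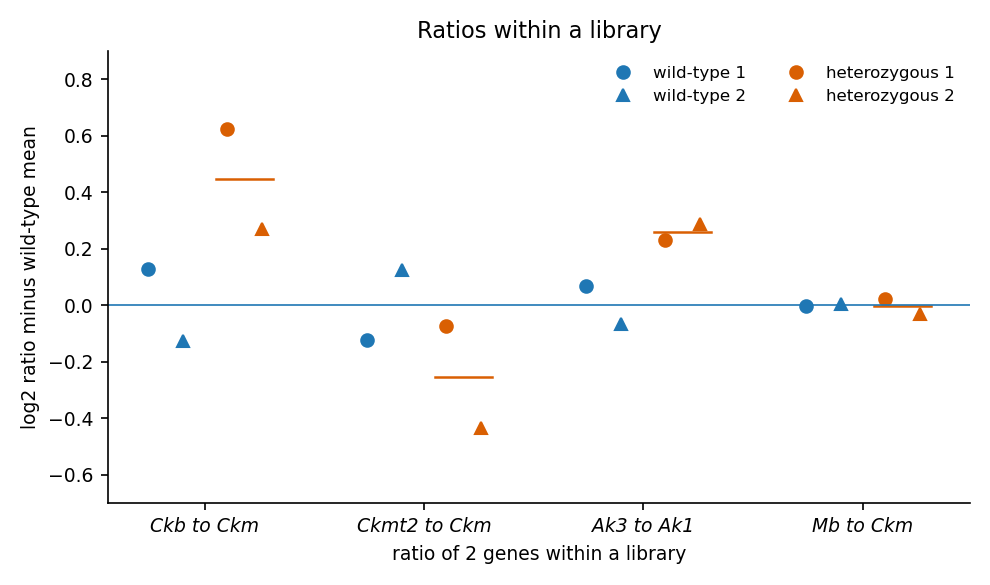
Log2 ratio of 2 genes within each library, minus the wild-type mean of that ratio, for the 2 wild-type (blue) and 2 heterozygous hearts (orange), with an orange line at the heterozygous mean. *Ckb* to *Ckm* and *Ak3* to *Ak1* are higher in both heterozygous hearts (0.45 and 0.26 on the log2 scale), *Ckmt2* to *Ckm* overlaps, and *Mb* to *Ckm* hardly moves.

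Each gene was also set against the summed cardiomyocyte markers of its own library, all of them genes of the contractile apparatus or of calcium handling. *Ckmt2* was lower relative to these markers in both heterozygous hearts, by a log2 difference of -0.33. *Ak1* was also lower without overlap (-0.11), whereas *Ckb* (0.37) and *Ak3* (0.15) were higher without overlap. Each of these had an exact permutation p of 0.333. Against the sum no share of all tested genes was counted. With libraries set to the median ratio of the same markers, 5.31% of all tested genes were lower and 50.7% higher without overlap. The result for *Ak1* and the separation of *Ckmt2* turned on how the markers were combined: with libraries set to the median ratio of the same markers, as above, the log2 fold changes were 0.06 and -0.16 and neither gene was lower without overlap. Without wild-type heart 2 the log2 difference from the sum was -0.16 for *Ckmt2* and -0.01 for *Ak1*. For *Ckm* (-0.07), *Mb* (-0.08) and *Slc6a8* (0.03) the genotypes overlapped.

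The genes whose course over the 4 hearts was most like that of a creatine kinase or of *Mb* were sought among 504 genes of mean TPM 50 or more, by the Euclidean distance of centred log2 values. Nearest to *Ckm* were *Pebp1* (distance 0.03), *Mb* (0.04) and *Sparc* (0.04). *Pebp1*, an inhibitor of Raf kinase, stood at 75.1, 76.1, 53.2 and 77.5 scaled TPM. *Ndufa11*, a complex I subunit, was among the nearest to *Mb* at 313.4, 313.6, 238.4 and 322.0. In each, as in *Ckm*, only heterozygous heart 1 stood apart. The nearest to *Ckb* were *Rplp2* (0.09), *Rpl3l* (0.09) and *Nptn* (0.09), and the ribosomal protein gene *Rplp2* was at 168, 154, 183 and 201 scaled TPM. With 4 libraries many genes have a similar course, so likeness is given as a description.

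Around the 7 genes, limma called none in the lists of related genes. Of 11 genes at the sites where creatine kinase takes up or delivers phosphate, 8 were lower and 2 were higher without overlap, with a median log2 fold change of -0.31 and 2 genes at an unadjusted p under 0.05. All tested genes had 23.3% lower and 23.7% higher without overlap. With libraries set to the cardiomyocyte markers, an alternative added after the values were seen, 1 gene of the list was lower and 2 were higher without overlap, with a median of -0.01. All tested genes then had 5.31% lower and 50.7% higher without overlap and a median of 0.23. With TPM as deposited 10 of the list were lower (median -0.75), beside 67.8% of all tested genes. In further alternatives added after the values were seen, 10 were lower with mt- genes removed (median -0.65). With their nuclear copies removed as well 7 were lower (-0.26), and with quantile normalization 8 (-0.24). The medians of all tested genes under these scalings were -0.35, -0.31, 0.05 and -0.005. For the further alternatives the share of all tested genes without overlap was not counted, so those counts are not read as a result about the list. *Slc25a4*, the main ADP/ATP carrier of heart mitochondria, had 585 and 703 scaled TPM in wild-type and 400 and 540 in heterozygous hearts (log2 fold change -0.47, adjusted p = 0.451 from limma). *Atp2a2*, the calcium pump of the sarcoplasmic reticulum, had 303 and 307 in wild-type and 229 and 262 scaled TPM in heterozygous hearts (-0.32, adjusted p = 0.506 from limma). *Myom1*, the M-band protein to which muscle creatine kinase binds, was at 582 and 539 in wild-type and 586 and 659 scaled TPM in heterozygous hearts (0.15, adjusted p = 0.762 from limma). *Slc25a4* and *Atp2a2* thus ran with *Ckmt2* in being lower in both heterozygous hearts, and *Myom1* was higher in both.

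Of 4 genes of creatine synthesis, creatine export and the other mitochondrial creatine kinase, only *Gamt*, which makes creatine, was high enough to be tested. It stood at 1.83 and 2.17 scaled TPM in wild-type and 1.31 and 1.96 in heterozygous hearts (log2 fold change -0.20, adjusted p = 0.644 from limma), far below *Slc6a8*. *Ckmt1*, *Gatm* and *Slc16a12* had a mean TPM under 1. Of 7 other adenylate kinases 2 were tested. *Ak6*, a nuclear form, had 8.87 and 10.5 scaled TPM in wild-type and 7.94 and 9.23 in heterozygous hearts (-0.15, adjusted p = 0.705 from limma). The genotypes overlapped, and its level was near that of *Ak3*.

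Among 14 tested genes of 17 for other nucleotide kinases and AMP metabolism, 3 were lower and 3 higher without overlap, 2 had an unadjusted p under 0.05 and the median log2 fold change was -0.06. These counts lie near the shares of all tested genes, 23.3%, 23.7% and 12.2%. *Nme2*, a nucleoside diphosphate kinase, was the highest of them at 214 and 216 scaled TPM in wild-type and 167 and 213 in heterozygous hearts (-0.19, adjusted p = 0.711 from limma). *Guk1*, the guanylate kinase, and *Adssl1*, the muscle enzyme of AMP synthesis, gave -0.04 and -0.06.

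Of 7 other globins 5 were tested. *Hbb-bs*, a beta-globin of red cells, had 388 and 405 scaled TPM in wild-type and 397 and 831 in heterozygous hearts, and only heterozygous heart 2 stood apart. *Hba-a1*, *Hba-a2* and *Hbb-bt* were likewise highest in that heart, with log2 fold changes of 0.60, 0.63 and 0.44 and adjusted p from limma of 0.534, 0.493 and 0.667. *Hba-a2* alone was higher without overlap, a pattern held by 23.7% of all tested genes. Its nearest hearts were wild-type heart 2 at 353 and heterozygous heart 1 at 356 scaled TPM. *Cygb*, the globin of fibroblasts and other cells, was at 5.26 and 5.58 in wild-type and 4.33 and 6.69 scaled TPM in heterozygous hearts (log2 fold change -0.004).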

How the data were processed

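Heart RNA of 4 mice, 2 wild-type and 2 *Ctcf* heterozygous, was measured with 1 library per mouse, and groups and replicate numbers follow the sample labels. The authors trimmed reads with Trim Galore, aligned them to mm10 with STAR and quantified genes with RSEM, and deposited TPM rounded to 2 decimals. The annotation release and the strand setting are not given in the sources used here. Counts were not used here, so the DESeq2 test of the authors was not repeated. TPM keep no depth, so no interval for counting error is given, and p-values rest on 2 mice per genotype.

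Libraries were scaled by median-of-ratios factors, computed over genes above 0 in all 4 libraries whose mean TPM reached 1, and log2(scaled TPM + 1) was fitted. Genes whose mean TPM reached 1 entered the fit, 10036 in all. It used lmFit and eBayes of limma 3.58.1 in R 4.3.3, with a mean-variance trend and two-sided p, which were adjusted by the method of Benjamini and Hochberg. The threshold for a call was an adjusted p of 0.05 together with a fold of 1.5. Ratios within a library were compared by exact permutation tests, in Python 3.11.15 with numpy 2.4.6 and pandas 2.3.3. Coordinates are those of GENCODE M21, to which 55141 of 55401 genes matched. Nuclear copies of mt- genes (11 found) were transcripts at least 95% identical over 80% of their length. The fit was tested on simulated data.

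The members and the lists of related and marker genes were chosen with earlier results of these data known. Besides the members, the genes named are every tested gene of a list of related genes with 5 or fewer tested and otherwise the 3 with the highest mean TPM, and the nearest 3 to *Ckm*, *Mb* and *Ckb* in course. Other genes (*Ddx3y*, *Xist* and those that overlap a member or copy it) are named outside that rule, beside the result they touch. The values of 1 gene that the rule names are not reported here. The alternatives were other pseudocounts (0.1 and 5), filters on low values, scalings and thresholds, a block for the replicate number, loess correction by GC content and length of the transcript (known for 10031 genes), alone or together with the block, eBayes in its robust form or with no trend, and each library left out in turn.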

Additional observations from a re-analysis of the deposited data

How the results depend on the processing

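No gene of the 7 was called under any of the 18 alternatives, where the smallest adjusted p of limma was 0.069, for *Ckmt2* with mt- genes removed. Of 126 log2 fold changes under alternatives 114 kept their direction and 12 were reversed. The block alone, the other eBayes forms and the other filters leave each log2 fold change as in the main fit. They could not reverse it and are counted in the 114. *Ckb* turned to -0.20 and *Ak3* to -0.39 for TPM as deposited, and once mt- genes were removed to -0.10 and -0.31. With libraries set to the cardiomyocyte markers *Ckm* turned to 0.091, *Slc6a8* to 0.19, *Ak1* to 0.058 and *Mb* to 0.087. These scalings shift the median of all tested genes by -0.35, -0.31 and 0.23. With 1 library left out, which leaves a lone library assumed to vary like the others, log2 fold changes ran from -0.47 to 0.039 for *Ckm*, -0.59 to -0.34 for *Ckmt2*, 0.10 to 0.34 for *Ckb*, -0.19 to -0.01 for *Slc6a8*, -0.36 to -0.12 for *Ak1*, -0.12 to 0.15 for *Ak3* and -0.45 to 0.0078 for *Mb*, where 1 value of *Ak3* was -0.003. *Ckm* and *Mb* turned only without heterozygous heart 1. The log2 differences of ratios then ran from -0.032 to 0.022 for *Mb* to *Ckm*, and against the cardiomyocyte markers from -0.20 to 0.055 for *Ckm*, -0.18 to 0.023 for *Mb* and -0.13 to 0.20 for *Slc6a8*, for which 2 values were below 0. They ran from 0.27 to 0.62 for *Ckb* to *Ckm*, -0.43 to -0.074 for *Ckmt2* to *Ckm* and 0.19 to 0.33 for *Ak3* to *Ak1*, and against the markers from -0.50 to -0.16 for *Ckmt2*, -0.20 to -0.0098 for *Ak1*, 0.29 to 0.46 for *Ckb* and 0.13 to 0.18 for *Ak3*. Over 1.5-fold smaller were *Ckb* to *Ckm* without heterozygous heart 1, *Ckmt2* to *Ckm* without wild-type heart 2 or heterozygous heart 2, and *Ckmt2* and *Ak1* against the markers without wild-type heart 2. With a pseudocount on both values *Ak3* to the markers was 0.20. Members lower and higher without overlap numbered 7 and 0 for TPM as deposited and 6 and 0 once mt- genes were removed. With their nuclear copies removed as well they numbered 2 and 2, and with the cardiomyocyte markers 0 and 2. The GC and length correction, with or without the block, gave 5 and 0. Those 5 were *Ckm*, *Ckmt2*, *Slc6a8*, *Ak1* and *Mb*. Beside these counts, 67.8% of all tested genes were lower as deposited. With the cardiomyocyte markers 5.31% were lower and 50.7% higher. For the other settings no such share was counted, so those counts are not read as a result about the members. Of all tested genes, those called lower and higher numbered 2 and 0 in the main fit, 4 and 0 with a pseudocount of 0.1, 0 and 0 with no filter, 11 and 2 as deposited, 12 and 2 with mt- genes removed, 4 and 2 with their copies removed as well, 3 and 4 with the cardiomyocyte markers, 3 and 2 with robust eBayes, and 4 to 13 and 0 to 13 with 1 library left out. With TPM as deposited, genes lower without overlap numbered 1 of 1 tested for creatine synthesis and 2 of 2 for the other adenylate kinases. They numbered 10 of 14 for the nucleotide kinases and 1 of 4 for the fetal-programme genes, beside 67.8% of all tested genes. Genes higher without overlap then numbered 1 for the nucleotide kinases and 1 at the sites of creatine kinase use. There were 0 among the globins and 0 among the fetal-programme genes, and the share of all tested genes higher as deposited was not counted. At the sites of creatine kinase use, in alternatives added after the values were seen, 1 gene was higher without overlap once mt- genes were removed, and 1 was lower with libraries set to the cardiomyocyte markers. The share of all tested genes was not counted with mt- genes removed, and 5.31% were lower with the markers.

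Same-numbered libraries come from different mice and share only a number, and the correlation of their deviations within a genotype was 0.101 over the tested genes. With the replicate number as a block the adjusted p of *Ckmt2* was 0.370, no member was called, and 7 genes were called lower and 3 higher (3 and 2 with the GC and length correction).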

Other observations

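Genes of the fetal heart programme were set beside *Ckb*, which is also expressed in the embryonic heart. *Nppb*, brain natriuretic peptide, had 109 and 121 scaled TPM in wild-type and 164 and 213 in heterozygous hearts, without overlap (log2 fold change 0.70, standard error 0.21, unadjusted p = 0.013 and adjusted p = 0.341 from limma). *Nppa*, atrial natriuretic peptide, overlapped at 393 and 1204 against 1012 and 1739, and it ran in the same order of hearts as the atrial marker sum, of which it is a part. *Acta1*, skeletal actin, was at 81.3 and 57.9 against 94.4 and 66.1 scaled TPM (0.20, adjusted p = 0.756 from limma), and *Myh7*, the slow myosin heavy chain, at 12.3 and 22.6 against 14.0 and 10.4 (-0.44, adjusted p = 0.546 from limma). None of the 4 tested genes of 5 was called, 1 had an unadjusted p under 0.05, 1 was higher without overlap, and their signs were mixed, where 12.2% of all tested genes had such a p and 23.7% were higher without overlap.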
